A study of Drosophila melanogaster with 9 samples.

Results

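The genes described here encode 10 heterogeneous nuclear ribonucleoproteins (hnRNPs) of Drosophila melanogaster, namely Hrb27C, Hrb87F, Hrb98DE, sqd, glo, heph, HnRNP-K, rump, ps and mub. They were picked by gene symbol, with earlier results of these data known, and all 10 were found among the 17559 genes counted in each library. RNA was measured in S2R+ cells, an embryonic, haemocyte-like cell line derived from Schneider's S2 cells. One group of 3 libraries came from cells with the Hox protein Ultrabithorax carrying the homeodomain change N51A (Ubx-N51A), another group of 3 from cells with wild-type Ultrabithorax (Ubx-WT), and 3 control libraries from cells with GFP directed to the nucleus. In all groups the protein was expressed through Gal4 and UAS with an actin promoter. The sample protocols name a myc tag on Ubx and the sample characteristics a GFP tag, so the tag was not settled. No treatment or time point separates the groups, and the replicates are described as independent. File names carry an unexplained word on sorting that differs by group, so any difference in sorting cannot be told apart from the expressed protein.

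hnRNPs coat nascent transcripts in the nucleus, where they influence which splice sites are used, and many travel with the mRNA to the cytoplasm and act there on its localization, stability and translation. In the fly, several of them are best known from the oocyte, where they keep oskar and gurken mRNA in place and silent, and from the omega speckles, nuclear stores of hnRNPs built on a long noncoding RNA. They fall into proteins with RNA recognition motifs (Hrb27C, Hrb87F, Hrb98DE, sqd, glo, rump and heph) and proteins with KH domains (HnRNP-K, ps and mub). The series title concerns Ubx, RNA binding and splicing during transcription. The counts per gene address a narrower question, whether the amounts of these RNA-binding proteins' transcripts differed when Ubx was present. They hold no splice junctions, so isoforms were not analysed here.

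Reads in genes numbered 30967554 to 66828787 per library, and 177298 to 382910 of them fell in the hnRNP genes, or 0.546% to 0.598%. The Ubx gene, which checks the labels, had 51719, 76367 and 145254 reads in Ubx-N51A cells and 71888, 69408 and 102681 in Ubx-WT cells, against 14, 8 and 89 in GFP cells. Reads of mitochondrial genes took 4.11% to 5.87% of the reads in Ubx-N51A libraries, 2.77% to 4.91% in Ubx-WT libraries and 1.92% to 3.43% in GFP libraries. Of 12 haemocyte markers, Pxn, crq and srp stood at 465, 258 and 231 CPM in GFP cells. CPM are reads of a gene scaled to library size. There Col4a1, Ppn, drpr and vkg stood at 92.7, 47.1, 45.4 and 44.4 CPM. Hml, eater and He were low in the same cells, at 7.38, 1.92 and 0.742 CPM. NimC1 had at most 1 read in a GFP library, and Nplp2 was not matched. Col4a1 was the one of 10 tested haemocyte markers that passed against GFP, lower with Ubx-N51A (-0.25 on the log2 scale, edgeR adjusted p = 0.0350) and with Ubx-WT (-0.22, 0.0407). The receptor genes fz and fz2, known from S2R+ cells, averaged 10.6 and 13.1 CPM in Ubx-N51A cells, 14.1 and 17.8 CPM in Ubx-WT cells and 9.04 and 9.09 CPM in GFP cells. The neuronal marker elav averaged 43.2 CPM in Ubx-N51A cells, 45.4 CPM in Ubx-WT cells and 38.1 CPM in GFP cells, and its libraries overlapped between all groups. The other neuronal markers, nSyb, brp and Syt1, had means of 0.466 to 0.643 CPM in Ubx-N51A cells, 0.496 to 0.778 CPM in Ubx-WT cells and 0.413 to 0.679 CPM in GFP cells. The fat body marker Fbp1 had 1, 0 and 1 reads in Ubx-N51A libraries, 13, 15 and 26 in Ubx-WT libraries and 1, 0 and 0 in GFP libraries. Lsp2 and Yp1, also of the fat body, had at most 7 reads per library. The germ line marker aub averaged 247.5 CPM in Ubx-N51A cells, 243 CPM in Ubx-WT cells and 245 CPM in GFP cells. Its level in GFP cells was above that of srp. bam, also of the germ line, averaged 1.75, 1.76 and 1.92 CPM in these groups, and vas and nos were not matched. The muscle markers Mlc2, up, Mhc and Act88F averaged at most 2.08 CPM in any group. The haemocyte marker drpr was lower with Ubx-N51A than with Ubx-WT (-0.20, edgeR adjusted p = 0.0252). The part of these differences in the hnRNP values was not tested.

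All CPM levels use library sizes adjusted with TMM factors, which correct for composition. Fold changes and p-values come from edgeR's quasi-likelihood test, with Benjamini-Hochberg adjustment over the 9207 genes tested and a threshold of 0.05. SE is the standard error of a log2 fold change. All 10 hnRNP genes passed the filter on low counts.

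Per kilobase of exon, most of the family was abundant. Hrb98DE, an A/B-type hnRNP of the omega speckles, stood highest. Its level per exon length was 350.6 CPM per kb in Ubx-N51A cells, 354 in Ubx-WT cells and 389 in GFP cells. Next came rump, the fly relative of mammalian hnRNP M, which helps to localize nanos mRNA, with 296 CPM per kb in Ubx-N51A cells, 293 in Ubx-WT cells and 305 in GFP cells. They were followed in GFP cells by Hrb87F at 212, sqd at 170.1, Hrb27C at 122, glo at 114.6 and HnRNP-K at 96.7 CPM per kb. These 7 genes ranked in the top 10% of tested genes, from the 90.9th to the 98.3rd percentile of level per exon length.

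The remaining 3 genes were far lower. In GFP cells ps, the fly relative of mammalian Nova splicing factors, stood at 29.9 CPM per kb, heph, which encodes the polypyrimidine tract-binding protein, at 8.62, and mub, a relative of mammalian poly(C)-binding proteins, at 6.07. The median of tested genes was 14.3. These are also the members with the longest merged exons, 13660, 12120 and 12718 bp, and with 18, 25 and 12 annotated transcripts. A cell that uses only short forms of such a gene has a higher true level per length than these values give. The order of the members was identical in the 3 groups. In GFP cells only Hrb27C and glo had library values that overlapped between neighbours in the order, and in Ubx-N51A and Ubx-WT cells no neighbours overlapped. With the longest transcript in place of the merged exons, sqd and Hrb87F changed places.

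**Figure D1:**
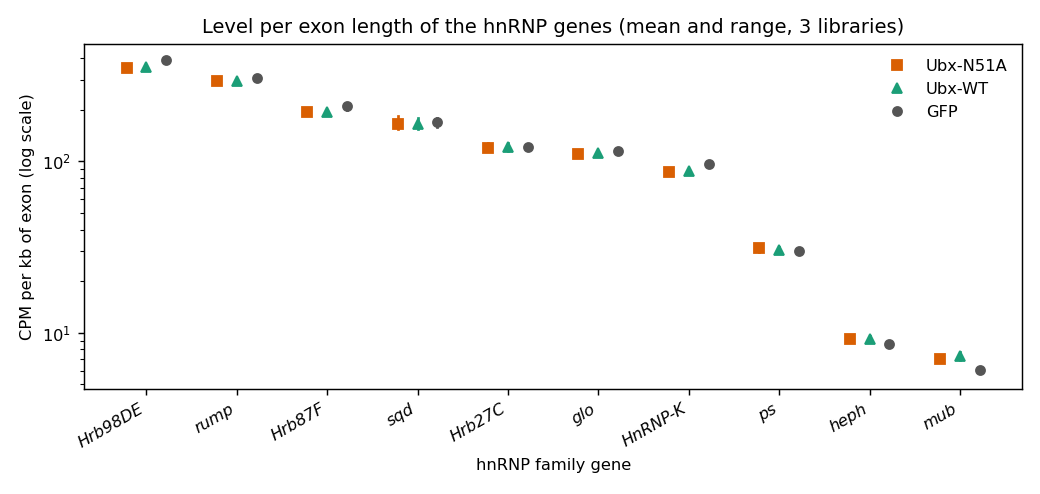
Level per exon length of the 10 hnRNP genes on a log axis, in CPM per kb of merged exon, with the mean of 3 libraries as a symbol and their range as a line, for Ubx-N51A, Ubx-WT and GFP cells from left to right. Hrb98DE stood highest at 389 CPM per kb in GFP cells and mub lowest at 6.07, and the order was identical in all groups.

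The transcript that changed most was that of mub, a KH-domain protein named for its expression in mushroom bodies. Its gene lies on chromosome 3L from 21844788 to 21932702 on the plus strand (BDGP6.54, the dm6 assembly). It stood at 90.4, 87.6 and 89.6 CPM in the Ubx-N51A libraries, at 88.6, 97.7 and 91.5 in the Ubx-WT libraries and at 74.0, 79.0 and 78.6 in the GFP libraries. Every Ubx library was above every GFP library, and the libraries with the mutant and the wild-type protein overlapped. Relative to GFP, mub rose 1.16-fold with Ubx-N51A (log2 fold change 0.21, SE 0.0443, edgeR adjusted p = 0.0121) and 1.20-fold with Ubx-WT (0.26, SE 0.044, edgeR adjusted p = 0.00126). Both calls held without each library in turn, with adjusted p up to 0.0487 for Ubx-N51A and 0.00679 for Ubx-WT. With the mitochondrial share of reads as a covariate, the rise was 0.12 for Ubx-N51A (edgeR adjusted p = 0.116) and 0.22 for Ubx-WT (edgeR adjusted p = 0.000517).

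Hrb98DE, by contrast, fell slightly with both proteins. This gene of the A/B type lies on chromosome 3R from 28599834 to 28605777, and its introns hold 7 small nucleolar RNA genes that share no exon with it. Its level was 975, 953 and 957 CPM in the Ubx-N51A libraries, 945, 975 and 990 CPM in the Ubx-WT libraries, and 1058, 1077 and 1068 CPM in the GFP libraries. All Ubx libraries lay below all GFP libraries. The log2 fold change was -0.15 for Ubx-N51A (SE 0.0411, edgeR adjusted p = 0.0406) and -0.14 for Ubx-WT (SE 0.0411, edgeR adjusted p = 0.0355), which are folds of 0.9005 and 0.908. The direction was the same without each library in turn, but the call was lost without any single one of them, with adjusted p between 0.0554 and 0.165 for Ubx-N51A and between 0.0646 and 0.131 for Ubx-WT.

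HnRNP-K, also called bancal, encodes a KH-domain hnRNP and carries the microRNA gene mir-7 within an intron (2R, 20587551 to 20606854). It had 213, 227 and 229 CPM with Ubx-N51A and 232, 219 and 228 CPM with Ubx-WT, against 248, 256 and 242 CPM with GFP. Again every Ubx library was below every GFP library. The log2 fold change was -0.16 for Ubx-N51A (SE 0.0417, edgeR adjusted p = 0.0354) and -0.14 for Ubx-WT (SE 0.0416, edgeR adjusted p = 0.039). For Ubx-N51A the call was lost without any single library, with adjusted p between 0.0503 and 0.178, and with the mitochondrial share as a covariate (-0.09, edgeR adjusted p = 0.248). For Ubx-WT it was lost without GFP replicate 1 (0.0989), GFP replicate 2 (0.172), Ubx-WT replicate 2 (0.130) or Ubx-WT replicate 3 (0.0986). The mir-7 locus had 0 to 2 reads per library of its own, so the microRNA could not be followed.

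**Figure D2:**
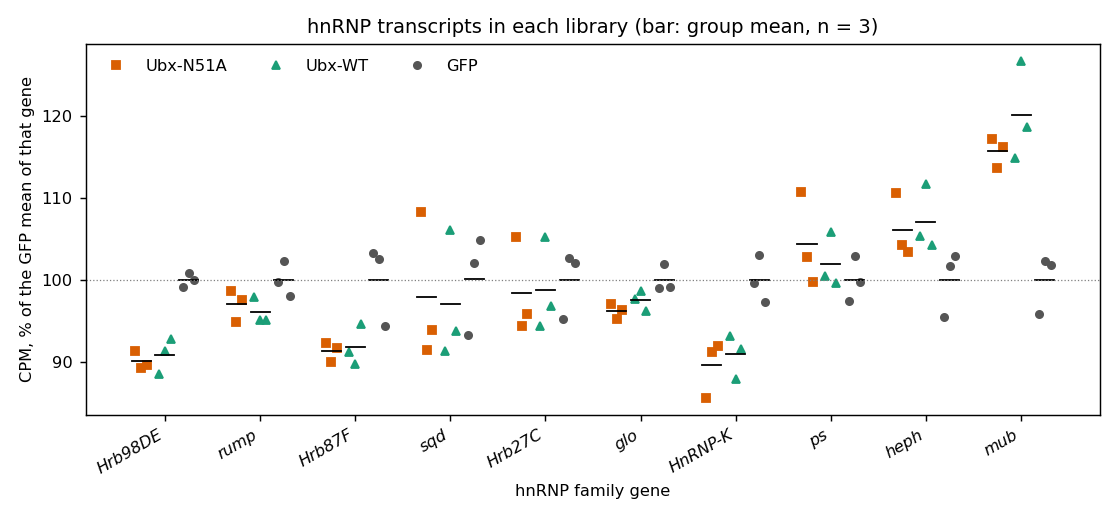
Level of each hnRNP transcript in each of the 9 libraries as a percentage of the mean CPM of that gene in GFP cells, with a bar at each group's mean (n = 3). The Ubx-N51A and Ubx-WT libraries of mub lie above its GFP libraries, those of Hrb98DE and HnRNP-K lie below, and sqd and Hrb27C spread as widely within a group as between groups.

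Hrb87F, the close relative of Hrb98DE within the A/B type, leaned the same way without passing the test. It had 539, 526 and 535 CPM with Ubx-N51A and 533, 524 and 553 CPM with Ubx-WT, against 603, 599 and 551 CPM with GFP. Every Ubx-N51A library was below every GFP library, and the third GFP library fell within the Ubx-WT range. The log2 fold change was -0.13 for Ubx-N51A (edgeR adjusted p = 0.0966) and -0.12 for Ubx-WT (edgeR adjusted p = 0.0827). DESeq2 gave adjusted p of 0.0338 and 0.0398 for these contrasts, and without GFP replicate 3 the Ubx-WT contrast passed in edgeR at -0.16 (adjusted p = 0.0331).

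sqd and Hrb27C did not pass the test against GFP. Squid, encoded by sqd and required to localize gurken mRNA, had 1425, 1205 and 1236 CPM with Ubx-N51A and 1203, 1396 and 1234 CPM with Ubx-WT, against 1229, 1344 and 1380 CPM with GFP. Hrb27C, which binds oskar and gurken mRNA and represses splicing of a P element intron in somatic cells, had 1117, 1002 and 1017 CPM with Ubx-N51A and 1002, 1117 and 1028 CPM with Ubx-WT, against 1011, 1090 and 1084 CPM with GFP. For both genes the libraries of all groups overlapped. The fold against GFP was 0.978 for sqd with Ubx-N51A (95% interval 0.874 to 1.10) and 0.970 with Ubx-WT (0.866 to 1.09). For Hrb27C it was 0.984 with Ubx-N51A (0.902 to 1.07) and 0.988 with Ubx-WT (0.905 to 1.08).

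glo, the fly hnRNP F/H protein and a partner of these proteins on their target mRNAs, varied least between replicates of the Ubx groups. It averaged 262 ± 2.43 CPM with Ubx-N51A and 265 ± 3.36 CPM with Ubx-WT, against 272 ± 4.49 CPM with GFP (SD, n = 3). Every Ubx library was below every GFP library, yet the log2 fold changes of -0.06 and -0.04 did not pass (edgeR adjusted p = 0.358 and 0.514). The gene shares 44 exonic bases with COX5A on the opposite strand, and whether the counting used strand was not stated in the labels. rump averaged 698 ± 13.7 CPM with Ubx-N51A and 691 ± 11.7 CPM with Ubx-WT, against 719 ± 15.8 CPM with GFP, and it shares 13 exonic bases with CG8149 on the opposite strand. Its log2 fold changes were -0.04 and -0.06 (edgeR adjusted p = 0.548 and 0.358).

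The splicing regulators heph and ps had higher means with Ubx without passing the test. heph (3R, 31846987 to 32015520) had 115.4, 109 and 108 CPM with Ubx-N51A and 109.9, 117 and 109 CPM with Ubx-WT, against 99.7, 106 and 107 CPM with GFP. Neither Ubx group overlapped with GFP, but the gap between the lowest Ubx library and the highest GFP library was smaller than the spread within each group. The log2 fold change was 0.08 for Ubx-N51A (95% interval -0.01 to 0.18, edgeR adjusted p = 0.282) and 0.10 for Ubx-WT (0.002 to 0.19, edgeR adjusted p = 0.154). ps averaged 426 ± 23.2 CPM with Ubx-N51A and 416 ± 13.9 CPM with Ubx-WT, against 408 ± 11.5 CPM with GFP, and its libraries overlapped in all comparisons. Its log2 fold changes were 0.06 and 0.03 (edgeR adjusted p = 0.466 and 0.739).

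Counted over the family, 3 of 10 genes passed the test with Ubx-N51A, 1 higher and 2 lower, where 8.09% of all tested genes passed, 3.38% higher and 4.71% lower. At an unadjusted p under 0.05 the hnRNP count was 4 of 10, where 23.4% of tested genes passed. With Ubx-WT the count was also 3 of 10, 1 higher and 2 lower, where 16.6% of all tested genes passed, 8.72% higher and 7.83% lower. At an unadjusted p under 0.05 it was 5 of 10, where 30.7% of tested genes passed. Falls were more common among abundant genes. Of the 2535 tested genes at least as abundant as mub, 10.9% passed with Ubx-N51A, 1.97% higher and 8.92% lower. With Ubx-WT 18.8% of these genes passed, 3.67% higher and 15.1% lower. An unadjusted p under 0.05 was reached by 740 of the 2535 with Ubx-N51A and by 922 with Ubx-WT. Both comparisons use the GFP libraries as control, so their counts are not independent of each other. Leaving out single libraries reduced the count to 1 of 10 in every case for Ubx-N51A, and to 1 without GFP replicate 1, GFP replicate 2, Ubx-WT replicate 2 or Ubx-WT replicate 3 and to 2 without Ubx-WT replicate 1 for Ubx-WT. The gene left was mub each time the count was 1.

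Sizes were small throughout. The median log2 fold change of the 10 genes was -0.04 with Ubx-N51A and -0.04 with Ubx-WT, beside 0.01 and 0.0005 over all tested genes. Over the 2535 tested genes at least as abundant as mub it was -0.03 and -0.04, near that of the family. The groups' libraries did not overlap for 6 of 10 hnRNP genes in each comparison, where this held for 29.4% of tested genes with Ubx-N51A and 35.4% with Ubx-WT. The median size of the hnRNP changes regardless of sign was 0.07 and 0.08. It stood beside 0.09 and 0.10 over all tested genes, and 0.07 and 0.08 over those at least as abundant as mub. Among the members that did not pass, the 95% intervals of the fold reached from 0.853 to 1.13 with Ubx-N51A and from 0.859 to 1.14 with Ubx-WT. The level per exon length summed over the family was 1371 ± 33.6 CPM per kb with Ubx-N51A and 1373 ± 18.4 with Ubx-WT, against 1454 ± 25.2 with GFP (SD, n = 3). Hrb98DE made up 25.6%, 25.8% and 26.8% of that sum in Ubx-N51A, Ubx-WT and GFP cells, and mub 0.512%, 0.530% and 0.417%. In these bulk libraries, fewer cells of a kind and less RNA per cell cannot be told apart.

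**Figure D3:**
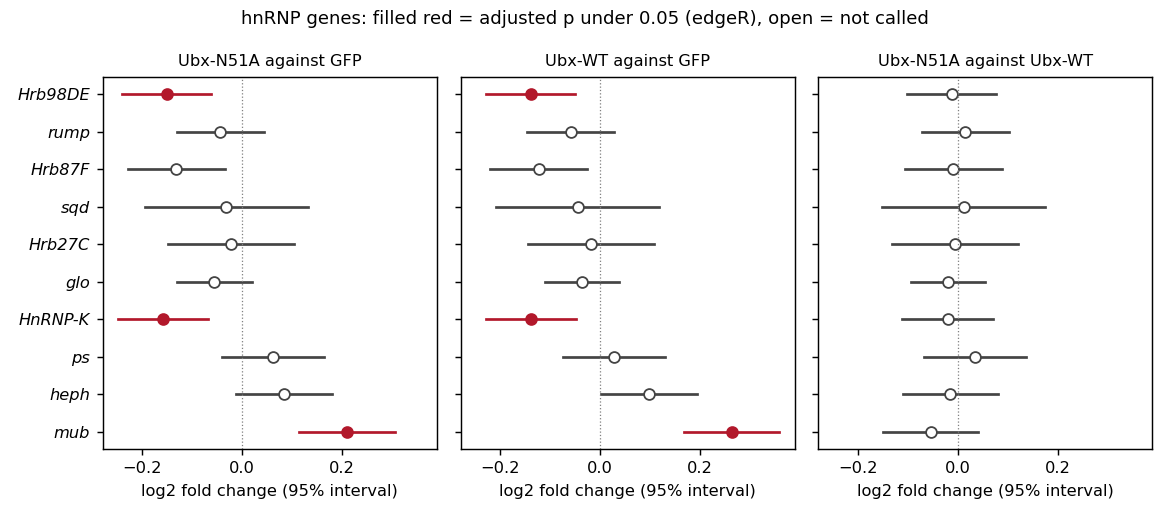
Log2 fold change of each hnRNP gene with its 95% interval in Ubx-N51A against GFP, Ubx-WT against GFP and Ubx-N51A against Ubx-WT cells. Filled red symbols mark an edgeR adjusted p under 0.05, which mub, Hrb98DE and HnRNP-K reached against GFP and no member reached between the Ubx proteins.

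The mutant, changed in the DNA-contacting part of the homeodomain, and the wild-type protein were then compared directly for any difference in hnRNP transcripts. Ubx RNA itself averaged 2016 CPM in Ubx-N51A cells and 1530 CPM in Ubx-WT cells, without overlap of libraries. The fold was 1.32 (95% interval 1.003 to 1.73, edgeR adjusted p = 0.287). This contrast cannot tell the mutation apart from the amount of Ubx RNA. None of the 10 genes passed, where 5.14% of all tested genes did in edgeR, 1.23% higher and 3.91% lower with Ubx-N51A. Among the 2535 genes at least as abundant as mub, 2.25% passed, 1.74% higher and 0.513% lower. None had an unadjusted p under 0.05, where 17% of tested genes did, and DESeq2 called 0 as well. All 10 overlapped between the groups, while 22.8% of tested genes did not. The log2 fold changes of Ubx-N51A over Ubx-WT ran from -0.05 for mub (edgeR adjusted p = 0.590) to 0.03 for ps (edgeR adjusted p = 0.789). Their 95% intervals lay between folds of 0.901 and 1.13, the widest being that of sqd. For mub the fold was 0.963 (0.902 to 1.03), for Hrb98DE 0.991 (0.932 to 1.05) and for HnRNP-K 0.986 (0.926 to 1.05). A p that misses the threshold does not show that the proteins act alike on these genes.

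**Figure D4:**
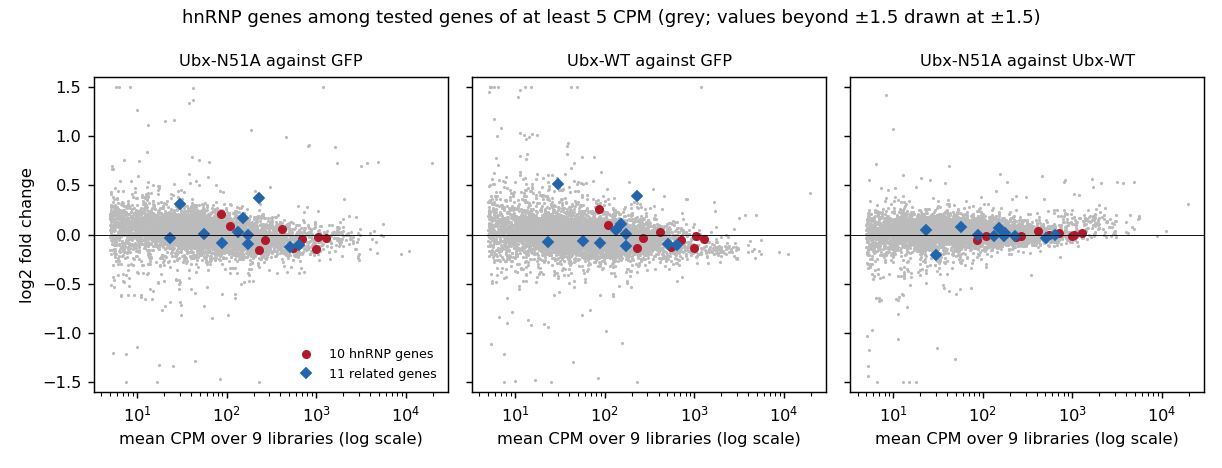
Log2 fold change of tested genes of at least 5 CPM (grey) against their mean CPM over 9 libraries, on a log axis, with the 10 hnRNP genes in red and 11 related genes in blue, for each of the 3 comparisons, with grey values beyond 1.5 drawn at the edge. The hnRNP genes lie close to 0 at the abundant end, and the related genes sm and Syp stand above them against GFP.

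Some related RNA-binding proteins changed more than the hnRNP genes did, among them Rbp6 and bru1 at low counts. The list held 14 genes, of which caz was not matched in the counts and 13 were tested. With Ubx-N51A 3 of 13 rose (sm, Syp and bru1) and none fell in edgeR, where 6 had an unadjusted p under 0.05 and DESeq2 called 2. Over all tested genes, 3.38% rose, 4.71% fell and 23.4% had such a p. With Ubx-WT 3 of 13 rose (sm, Syp and Rbp6) and none fell in edgeR, where 5 had an unadjusted p under 0.05 and DESeq2 called 3. Over all tested genes, 8.72% rose, 7.83% fell and 30.7% had such a p. The medians were 0.006 and 0.002 on the log2 scale. Regardless of sign, the median size was 0.11 with Ubx-N51A and 0.10 with Ubx-WT, beside 0.09 and 0.10 over all tested genes. sm, which encodes the fly hnRNP L, had 31.3, 30.5 and 29.6 CPM with Ubx-N51A and 34.2, 35.9 and 35.0 CPM with Ubx-WT, against 23.2, 25.5 and 24.8 CPM with GFP. No library of one group overlapped with another group. It rose by 0.31 with Ubx-N51A (SE 0.0509, edgeR adjusted p = 0.00271) and by 0.52 with Ubx-WT (SE 0.05, edgeR adjusted p = 1.61e-05). It was also lower with Ubx-N51A than with Ubx-WT (-0.20, SE 0.0496, edgeR adjusted p = 0.0327), a call lost without Ubx-WT replicate 2 (adjusted p = 0.116), Ubx-WT replicate 3 (0.112), Ubx-N51A replicate 2 (0.0974) or Ubx-N51A replicate 3 (0.123) and in a fit corrected for exon length (-0.13, 0.236).

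Syp, the fly hnRNP Q/R protein Syncrip, averaged 250 ± 26.0 CPM with Ubx-N51A and 252 ± 29.3 CPM with Ubx-WT, against 192 ± 18.9 CPM with GFP (SD, n = 3). It rose by 0.37 with Ubx-N51A (edgeR adjusted p = 0.0259) and by 0.39 with Ubx-WT (edgeR adjusted p = 0.0112). The Ubx-N51A call was lost without GFP replicate 1 (0.0867), GFP replicate 2 (0.0566), Ubx-N51A replicate 1 (0.102) or Ubx-N51A replicate 2 (0.0586), and with the mitochondrial share as a covariate (0.09, edgeR adjusted p = 0.270). The Musashi-related gene Rbp6 was barely expressed, with 7, 11 and 7 reads in Ubx-N51A libraries and 14, 24 and 32 in Ubx-WT libraries, against 2, 5 and 5 in GFP libraries, and it rose by 2.25 with Ubx-WT (edgeR adjusted p = 0.00287). bru1, a translational repressor of oskar, had 11, 19 and 32 reads with Ubx-N51A and 13, 13 and 25 with Ubx-WT, against 11, 6 and 12 with GFP. It rose with Ubx-N51A (1.12, edgeR adjusted p = 0.0333), a call that DESeq2 did not make (adjusted p = 0.102) and that was lost without GFP replicate 1 (0.0640), GFP replicate 2 (0.127), GFP replicate 3 (0.0742), Ubx-N51A replicate 2 (0.0939) or Ubx-N51A replicate 3 (0.111).

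Of 14 known partners and regulators of fly hnRNPs, 11 were tested, Imp was not matched, cup was listed at 0 and otu had at most 7 reads per library. None passed with Ubx-N51A in edgeR, where 1 had an unadjusted p under 0.05 and DESeq2 called 0, and 1 fell with Ubx-WT, where 2 had an unadjusted p under 0.05. Over all tested genes, 8.09% passed with Ubx-N51A and 16.6% with Ubx-WT. The one that fell was Art1, an arginine methyltransferase, at -0.15 (SE 0.0483, edgeR adjusted p = 0.0454). It averaged 180.1 ± 10.9 CPM with Ubx-WT, against 200.5 ± 8.13 CPM with GFP. This call was lost without GFP replicate 1 (0.168), GFP replicate 2 (0.155), Ubx-WT replicate 2 (0.163) or Ubx-WT replicate 3 (0.0738), and with the mitochondrial share as a covariate (0.0589). The RNA scaffold of the omega speckles, lncRNA:Hsromega, averaged 93.1 ± 5.78 CPM with Ubx-N51A and 90.3 ± 7.03 CPM with Ubx-WT, against 85.6 ± 4.39 CPM with GFP, and did not pass (edgeR adjusted p = 0.273 for Ubx-N51A and 0.439 for Ubx-WT).

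In Ubx-N51A cells every hnRNP gene but HnRNP-K was highest in replicate 1, the library of that group with the most mitochondrial reads. The members' summed level was 5900 CPM in that library, against 5470 and 5541 CPM in replicates 2 and 3. In Ubx-WT cells Hrb27C, sqd, glo, heph, ps and mub were highest in replicate 2, and the other members in replicate 1 or 3. In GFP cells Hrb27C, Hrb98DE, glo, HnRNP-K, rump, ps and mub were highest in replicate 2, and the other members in replicate 1 or 3. How many of all genes were highest in each of these libraries was not counted. In GFP cells the coefficient of variation over 3 libraries ran from 0.889% for Hrb98DE to 5.98% for sqd, with a median of 3.26% over the family beside 3.10% over tested genes of at least the abundance of mub. sqd and heph were highest, in all 3 groups, in the library with the most mitochondrial reads, and HnRNP-K was lowest in that library in all 3 groups. Of 6553 genes of at least 5 CPM, 12.2% were highest there in all groups and 13.1% lowest. The mitochondrial share also differed between groups. With it as a covariate, sqd was called lower with Ubx-N51A (-0.25, edgeR adjusted p = 0.00386) and with Ubx-WT (-0.14, 0.01), and Hrb27C with Ubx-N51A (-0.17, 0.0287). The part of the mitochondrial share in these values was not tested further.

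**Figure D5:**
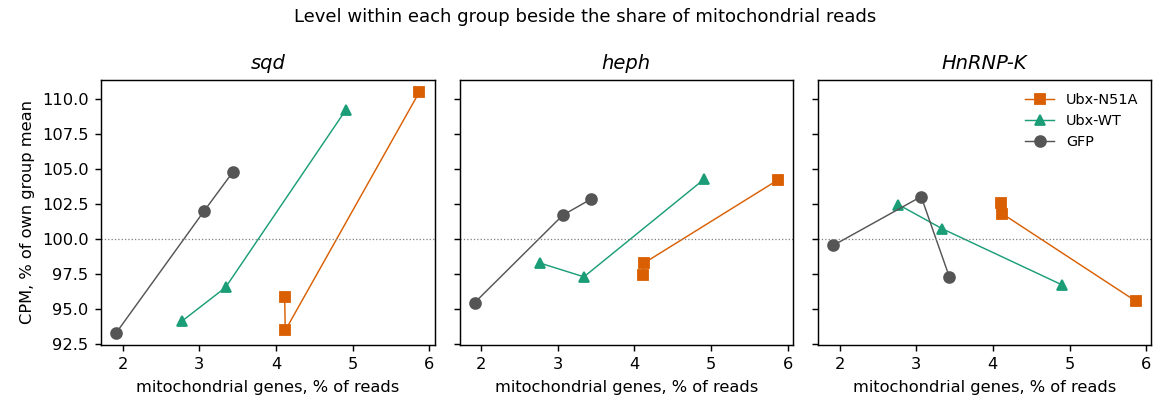
CPM of sqd, heph and HnRNP-K in each library as a percentage of the mean of its own group, against the percentage of reads in mitochondrial genes, with the libraries of Ubx-N51A, Ubx-WT and GFP cells joined by lines. These 3 genes were chosen after their values were seen; sqd and heph are highest, and HnRNP-K lowest, in the library of each group with the highest mitochondrial share.

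Exon length was considered as well, since mub has 12718 bp of merged exon and the genes that fell 2743 bp (Hrb98DE) and 2571 bp (HnRNP-K). Among genes of at least 5 CPM, the 10% with the longest exons had a median log2 fold change of -0.02 with Ubx-N51A and 0.03 with Ubx-WT, and the 10% with the shortest 0.07 and -0.06. In fits corrected for exon length mub rose by 0.22 with Ubx-N51A (edgeR adjusted p = 0.00314) and by 0.21 with Ubx-WT (0.00224). Hrb98DE was called lower with Ubx-N51A (-0.14, edgeR adjusted p = 0.0324) and with Ubx-WT (-0.14, 0.0192), and so was HnRNP-K (-0.15, 0.0291 and -0.14, 0.0257).

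For each gene called, the transcripts with the most similar profile over the 9 libraries were sought among 6552 genes of at least 5 CPM, by the root mean square difference of centred log2 CPM. For mub, whose own root mean square deviation was 0.122, they were Pdcd4 (difference 0.0339), Dif (0.0340) and Sdc (0.0369). The translation inhibitor gene Pdcd4 averaged 356 CPM with Ubx-N51A and 384 CPM with Ubx-WT, against 314 CPM with GFP. For Hrb98DE, with a deviation of 0.0712, they were mnb (0.0186), Stt3A (0.0215) and mEFG1 (0.0253), and for HnRNP-K, with 0.0804, CG17598 (0.0217), Srp54k (0.0243) and Khc (0.0248). The kinesin heavy chain gene Khc averaged 411 CPM with Ubx-N51A and 413 CPM with Ubx-WT, against 458 CPM with GFP. These are likenesses of level over 9 libraries and were not tested.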

How the data were processed

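Each of the 9 deposited files gives 1 library's unnormalized counts of reads for every FlyBase gene, from directional poly(A) libraries of 75 bp single-end reads. Per the submitters' processing notes, Trimmomatic 0.36, STAR and HTSeq were used with builds dm6 and BDGP6. Settings, strand option and annotation: not given in the sources used here. Per the labels, 3 of the replicates made were kept after a principal component analysis, which can narrow the spread behind the p-values. File names carry a word on sorting that differs between groups and cannot be told apart from them. The 5 summary rows stayed out; multiply aligned reads made up 3.26% to 5.05% of all counted reads and ambiguous ones 3.11% to 3.32%.

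The test was edgeR's quasi-likelihood F test (4.0.16, under R 4.3.3). Low counts were removed with filterByExpr, libraries scaled by TMM (factors 0.971 to 1.026) and fitted with group as the only term over 9 libraries. SE is the size of the log2 fold change over the root of F, and 95% intervals use the fit's degrees of freedom. DESeq2 1.42.0 was an alternative. The code was tested on simulated data. Coordinates and exon lengths come from Ensembl 115 (BDGP6.54), and 17253 of 17559 IDs matched a symbol. Replicates differed beyond counting noise in every pair (lowest chi-square over degrees of freedom 6.72), and p-values measure the spread between these libraries. The members and lists were chosen with earlier results of these data known. Named are Ubx, the members, genes called in any comparison from the lists of related proteins and of partners, and 3 genes of most similar profile per called member. Other genes were named after their values were seen.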

Additional observations from a re-analysis of the deposited data

How the results depend on the processing

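No member changed direction against GFP at a called value, under any alternative run. With the replicate number from the titles as a block, the count of members called was 1 with Ubx-N51A and 1 with Ubx-WT, in place of 3 each, and the gene left was mub; Hrb98DE and HnRNP-K stood at adjusted p of 0.0672 to 0.0808. Same-numbered libraries did not deviate together throughout (correlations of -0.328 to 0.540), so the numbers were not taken to pair libraries. The value of 0.540 was that of GFP replicate 1 with Ubx-WT replicate 1, and the other same-numbered pairs were at or below 0.066. Leaving out each library gave 1 to 1 members called with Ubx-N51A, 1 to 3 with Ubx-WT and 0 to 0 between the Ubx proteins, and 362 to 578, 990 to 1639 and 302 to 464 genes in all, against 745, 1524 and 473. A fit of only the groups compared called 2 members with Ubx-N51A, and DESeq2 called 4 in each comparison against GFP. With the mitochondrial share as a covariate 1077 genes differed between the Ubx proteins, 475 higher and 602 lower with Ubx-N51A, in place of 113 and 360. That fit called 3 members with Ubx-N51A, 0 higher and 3 lower (Hrb98DE, sqd and Hrb27C). With Ubx-WT it called 4, 1 higher and 3 lower (mub, and Hrb98DE, HnRNP-K and sqd). Hrb98DE stood there at -0.18 with Ubx-N51A (edgeR adjusted p = 0.0256) and -0.15 with Ubx-WT (0.0072). By longest transcript, 2 members changed rank.

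The signs that turned belonged to log2 fold changes that were small and not called in the main fit. Over all edgeR and DESeq2 runs, Syp reached -0.17 between the Ubx proteins, and its lowest adjusted p there was 0.00917. In fits corrected for exon length these were ps with Ubx-WT (-0.0327) and, between the Ubx proteins, Hrb27C (0.0583), Hrb87F (0.003), heph (0.0565), mub (0.018) and Syp (0.0566). With the mitochondrial covariate they were ps with Ubx-N51A (-0.0351) and Ubx-WT (-0.0163), heph with Ubx-N51A (-0.0172) and, between the Ubx proteins, Hrb87F (0.0099), sqd (-0.11), HnRNP-K (0.0179) and ps (-0.0188). Without single libraries, Hrb27C ran from -0.0681 to 0.0097 with Ubx-N51A and from -0.0658 to 0.013 with Ubx-WT, sqd from -0.11 to 0.0172 with Ubx-N51A, and ps from -0.0004 to 0.0511 with Ubx-WT. Between the Ubx proteins the ranges were -0.0528 to 0.043 for Hrb27C, -0.0254 to 0.0138 for Hrb87F, -0.0305 to 0.003 for Hrb98DE, -0.0635 to 0.0811 for sqd, -0.042 to 0.0171 for heph, -0.0431 to 0.0133 for HnRNP-K, -0.0076 to 0.0669 for ps and -0.0981 to 0.0832 for Syp. The cause was not tested. The exon length and mitochondrial fits were chosen after seeing the data. Depth limits Rbp6 and bru1, which had at most 32 reads in a library.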
